A study of Bos taurus and Sus scrofa with 10 samples.

Results

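The cytosolic ribosomal protein genes encode the proteins that, together with the ribosomal RNAs, build the small and the large subunit of the ribosomes of the cytoplasm. They were chosen by symbol: every row named RPL or RPS with a number and an optional A, X or L, together with RPLP0, RPLP1, RPLP2 and RPSA, leaving out the kinases named RPS6K and any row on the Y chromosome. Where a symbol stood on several rows, the row with the highest mean was used. This gave 77 of the 22845 rows of the cow table and 49 of the 21867 rows of the pig table, 48 of them present in both and 78 in either. The species were matched by symbol. Cow RPS4 and pig RPS4X, both on the X chromosome, therefore count separately in the 78 and are left out of the 48. The cow members comprise 30 small subunit genes, 41 large subunit genes, 3 genes of the acidic stalk and 3 tissue-restricted or inducible copies, and the pig members 20, 24, 2 and 3. They are scattered over 27 chromosomes in the cow and 15 in the pig.

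The study sequenced total RNA of oocytes and preimplantation embryos of cow (bovine) and pig (porcine) at 5 stages: the oocyte, the embryo of 2 to 4 cells, the embryo of 8 to 16 cells, the morula and, last, the blastocyst. The series holds 10 libraries in all, 1 for each of these stages in either species, with no replicate. The labels give no treatment, genotype, breed, age or culture condition for any of them, and do not say how many oocytes or embryos were pooled or how the embryos were obtained. RNA was isolated with a PicoPure kit and amplified before library preparation with a kit for small inputs, followed by 8 PCR cycles.

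Ribosomal protein messenger RNAs share a pyrimidine-rich start, the 5′ terminal oligopyrimidine motif, through which the growth kinase mTOR and the RNA-binding protein LARP1 adjust their translation together. A growing oocyte makes and stores ribosomes, and the early cleavage divisions run on that store and on maternal messenger RNA. The embryo's own genome is switched on over the following cleavage stages, and maternal messages are cleared around that time.

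Levels are given as RPM, reads per 1000000 reads of the same library. Gene length does not enter them, so members are compared with themselves between libraries and not ranked against each other. A change is the difference of log2(RPM + 1) between 2 libraries, which understates the change of low genes, and a gene is said to have risen or fallen where that difference reached 2, 4-fold at high levels, with at least 1 RPM in 1 of the libraries. Folds are plain ratios of RPM with exact 95% conditional intervals, and shares and levels have 95% Wilson intervals. The labels describe no molecular identifiers, and these intervals cover counting error only. They say nothing of the variation between embryos, which 1 library per stage cannot show, and no test between stages was possible. A count of 0 reads allows up to 3 reads, which is 0.212 RPM in the cow blastocyst, the deepest library with 14182046 reads, and 0.999 RPM in the pig morula, the shallowest with 3002751 reads. In whole embryos a smaller number of cells of a type and less RNA per cell cannot be told apart.

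The labelled stages were set against marker genes. The summed level of 13 oocyte genes, zona pellucida proteins and oocyte growth factors among them, was 7407 RPM in the cow oocyte and 0.353 RPM in the cow blastocyst, where 11 of them had 0 reads, and in the pig it went from 9913 to 39.7 RPM. Genes of the first epithelium and the inner lineages of the blastocyst summed to 146 RPM in the cow oocyte and 5204 RPM in the cow blastocyst, and to 23.1 and 11160 RPM in the pig. A list of cumulus, granulosa and stromal cell genes summed to between 63.3 and 489 RPM in the first 4 cow libraries and to 1023 RPM in the cow blastocyst, and to between 53.9 and 82.4 RPM in the first 4 pig libraries and 1867 RPM in the pig blastocyst. PTGS2, which stands on both the blastocyst and the cumulus list, accounted for 902 RPM of the cow blastocyst sum and 1809 RPM of the pig one. In the cow blastocyst 8 of the 20 genes of that list had 0 reads, HAS2, TNFAIP6, PTX3, AMH, FST, COL3A1, VIM and LUM, and in the pig blastocyst 10 of 18, PTX3, COL1A1 and VIM among them. Besides PTGS2, other genes of the list were higher in the blastocyst than in the oocyte by the threshold used below, in the cow CYP19A1 at 48.8 RPM, CYP11A1 at 16.6 RPM and COL1A2 at 14.03 RPM, and in the pig CYP19A1 at 20.4 RPM, FST at 11.53 RPM and GJA1 at 5.36 RPM. By the same threshold HAS2, GJA1, STAR and PTX3 were lower in the cow blastocyst than in the cow oocyte, and FSHR and COL1A2 in the pig. The sum of 489 RPM was that of the cow oocyte, with STAR at 157, HAS2 at 141, PTGS2 at 91.3 and GJA1 at 51.9 RPM. Mitochondrial genes took from 2.74% to 10.7% of the reads of the first 4 cow libraries and 30.2% of those of the cow blastocyst, and from 6.06% to 18.6% in the pig. The part of these other cell types in the results was not tested.

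In both species the ribosomal protein genes took a small part of the oocyte's reads and a far larger part of the blastocyst's. In the cow they held 0.208% of all reads in the oocyte (0.204% to 0.212%), 0.234% at 2 to 4 cells, 0.617% at 8 to 16 cells, 0.939% in the morula and 1.71% in the blastocyst (1.70% to 1.72%), 8.23-fold over the oocyte. In the pig they held 0.0540% in the oocyte (0.0516% to 0.0565%), 0.0273% at 2 to 4 cells (0.0258% to 0.0290%), 0.0879% at 8 to 16 cells, 0.642% in the morula and 2.60% in the blastocyst (2.59% to 2.62%), 48.2-fold over the oocyte. The order of the stages was therefore the same in both species except at 2 to 4 cells, where the share was 1.13-fold higher than in the oocyte in the cow and 1.98-fold lower in the pig. From step to step the largest ratio in the cow was 2.63 between 2 to 4 and 8 to 16 cells, and in the pig it was 7.31 between 8 to 16 cells and the morula. As a share of the reads in non-mitochondrial genes, the members went from 0.306% to 3.32% in the cow and from 0.0673% to 3.51% in the pig. That share leaves out both the mitochondrial reads and the reads outside the gene rows, and both differ between libraries.

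**Figure D1:**
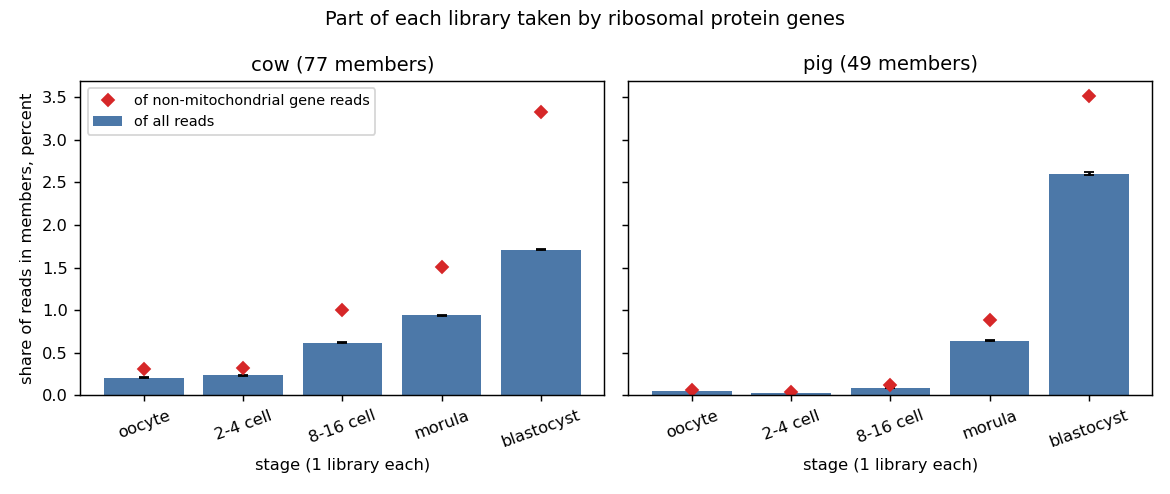
Share of each library's reads, in percent, that fell in the ribosomal protein genes, by stage (1 library each), for 77 members in the cow and 49 in the pig. Bars give the share of all reads with its 95% Wilson interval and diamonds the share of reads in non-mitochondrial genes; the cow bars go from 0.208% to 1.71%, and the pig bars dip to 0.0273% at 2 to 4 cells before reaching 2.60%.

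The tables name different genes, so the shares were also taken over the 48 members present in both. These held 0.101%, 0.115%, 0.346%, 0.537% and 1.06% of cow reads from the oocyte to the blastocyst, and 0.0527%, 0.0270%, 0.0859%, 0.617% and 2.56% of pig reads. The 2 tables were normalized separately and rest on different annotations, so the levels of the species stand side by side and only the changes within each are compared. On the shared genes too, the pig share at 2 to 4 cells was below that of its oocyte and the cow share was not.

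The range that holds the middle 50% of members was narrower in the blastocyst than in the oocyte of both species. In the cow the middle 50% of members lay between 4.06 and 27.4 RPM in the oocyte, a 6.75-fold range that was 8.29-fold at 2 to 4 cells, and between 107 and 268 RPM in the blastocyst, a 2.51-fold range. The pig members went from 1.18 to 12.7 RPM in the oocyte, a 10.8-fold range, to between 294 and 708 RPM in the blastocyst, a 2.41-fold range, with a 16.0-fold range at 2 to 4 cells. The lower end of that last range was 0.242 RPM, the level of 1 read, and 20 of the 49 members had at most 3 reads there. The 16.0 is therefore uncertain. The standard deviation of the log2 levels, which also weighs the members with few reads, went from 1.81 to 1.21 over 75 cow members and from 1.75 to 2.22 over 46 pig members, so by that measure the pig members were further apart in the blastocyst. The median member stood at 10.8, 13.97, 65.5, 99.3 and 188 RPM in the 5 cow libraries and at 4.14, 1.93, 12.6, 77.3 and 457 RPM in the 5 pig libraries. The 5 members with the most reads took 39.2% of all member reads in the cow oocyte and 23.7% in the cow blastocyst, and in the pig 45.9% in the oocyte, 62.5% at 2 to 4 cells and 29.5% in the blastocyst. The leading members thus held a smaller part of the member reads in the blastocyst than in the oocyte of either species.

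Small subunit genes held a larger part of the reads in the blastocyst than in the oocyte, without a steady climb. Of the reads in small and large subunit genes, they held 38.1% in the cow oocyte, 44.4% at 2 to 4 cells, 49.6% at 8 to 16 cells, 48.2% in the morula and 47.7% in the blastocyst. The pig went from 39.8% in the oocyte to 27.0% at 2 to 4 cells, then to 42.3%, 50.4% and 50.7%. In the cow oocyte 2 large subunit genes, RPL21 with 13.4% and RPL15 with 9.93% of all member reads, made up much of the large subunit's part. At 2 to 4 cells in the pig RPL15 and RPL5 had 21.6% and 20.9% of member reads, against 1.46% and 3.32% in the blastocyst.

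**Figure D2:**
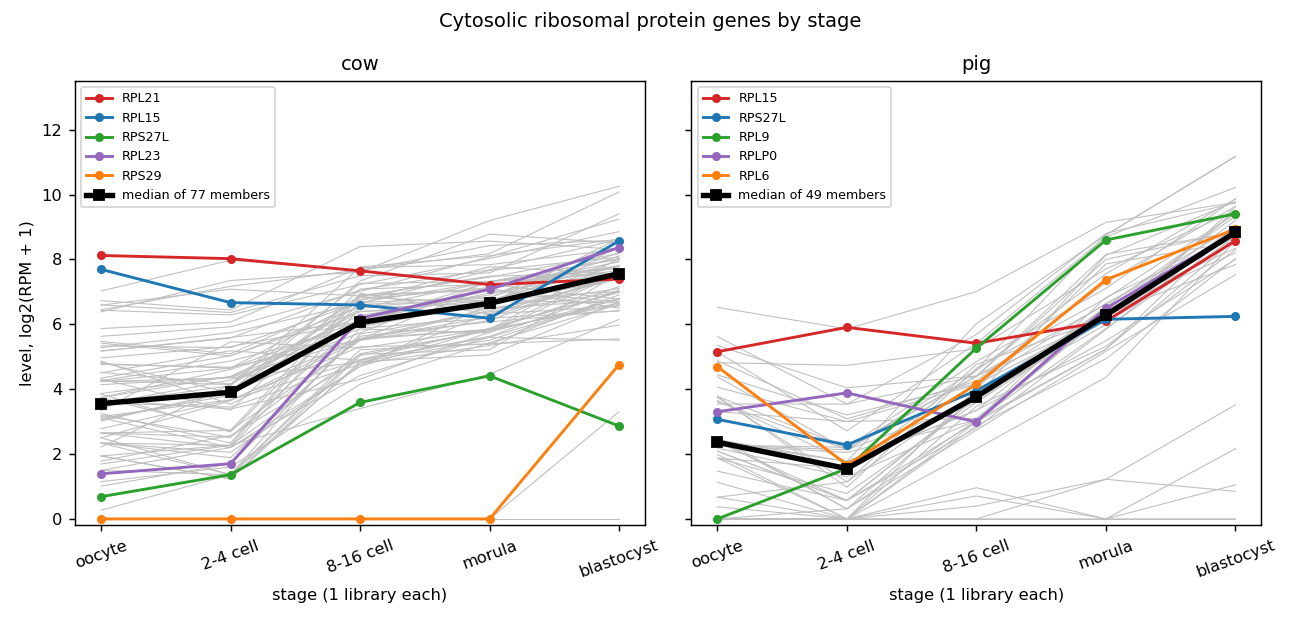
Level of every member, log2(RPM + 1), at the 5 stages (1 library each) in cow and pig, with 0 reads drawn at 0. Grey lines are single members, the black line is the median member and coloured lines are named members; most lines turn upwards after 2 to 4 cells, while cow RPL21 runs slightly downwards and cow RPS29 is at 0 until the blastocyst.

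Between the cow oocyte and blastocyst 70 of the 77 members rose and none fell, 28 of 30 small subunit genes, 38 of 41 large subunit genes, all 3 stalk genes and RPS27L. Over all genes compared 21.8% rose and 40.2% changed in either direction. The median change over all 77 members was 3.55 on the log2(RPM + 1) scale, against 0.18 over all genes, with 3.74 for small and 3.31 for large subunit genes. Members with more than 3 reads in both libraries numbered 71, and in 70 of them the interval of the fold lay above 1.

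RPL23, a large subunit protein that can also bind the p53 regulator MDM2 (cow chromosome 19, 40075000 to 40079360), had the largest rise in the cow. It stood at 1.62, 2.25, 71.8, 134 and 329 RPM from the oocyte to the blastocyst, 203-fold higher at the end (103 to 470). Nearly all of this lay after the 2 to 4 cell stage, where it still had 10 reads. RPL38, a large subunit protein whose loss changes the translation of Hox messages in mice, had 1 read in the oocyte and then 1.58, 33.1, 55.1 and 99.99 RPM. Its ratio of 493 rests on that single read and has an interval from 88.3 to 19480.

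The 3 small subunit genes with the largest rises each had a higher level at every stage than at the one before, by differing amounts. Not all of these steps were beyond counting error. RPS9, whose bacterial counterpart affects decoding accuracy, stood at 1.01, 2.25, 51.0, 82.6 and 126.9 RPM, 125-fold higher in the blastocyst (53.5 to 386). RPS10, at the head of the small subunit, stood at 2.23, 3.83, 32.8, 36.2 and 189 RPM (84.6-fold, 47.2 to 170). RPS18, also in the head, stood at 7.51, 13.1, 89.8, 98.7 and 402 RPM (53.5-fold, 38.8 to 76.1). RPS10 and RPS18 each rose a second time between the morula and the blastocyst, where RPS9 did not reach the threshold.

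Of the 7 cow members that did not rise, 2 had 0 reads in every library and 5 were already plentiful in the oocyte. Some members nearly as plentiful there did rise, RPS4 from 95.9, RPL19 from 86.2, RPL10 from 85.4 and RPS3 from 82.4 RPM. RPL21, a large subunit protein (cow chromosome 12, 32852826 to 32859542), was the only cow member above 3 reads in both libraries whose interval lay below 1. It stood at 277, 259, 199.5, 148 and 167 RPM, 1.66-fold lower in the blastocyst than in the oocyte (1.55 to 1.77), which is short of the threshold. Its part of all member reads went from 13.4% in the oocyte to 3.23% at 8 to 16 cells, 1.58% in the morula and 0.979% in the blastocyst. RPL21 was the single cow member highest in the oocyte.

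RPL15, another large subunit protein (cow chromosome 27, 41930646 to 41934590), had a valley rather than a climb. It stood at 206, 101, 95.7, 71.8 and 381 RPM, so that it rose 5.30-fold (4.70 to 6.003) from the morula to the blastocyst but was only 1.85-fold above the oocyte (1.73 to 1.98). RPL4, RPS2 and RPS24 were also high early. RPL4 stood at 95.3, 134.5, 116, 174 and 289 RPM, RPS2 at 129, 251, 200.3, 343 and 386 RPM, and RPS24 at 105, 85.8, 336, 378 and 316 RPM. Their ratios of blastocyst to oocyte were 3.03 (2.75 to 3.34), 2.98 (2.75 to 3.24) and 3.01 (2.74 to 3.30), above 1 beyond counting error and short of the threshold.

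The first cleavages left the cow members nearly where they were. Between the oocyte and 2 to 4 cells 1 member, RPSA, rose and none fell, where 0.196% of all genes rose and 0.374% changed. RPSA, a small subunit protein also known as the laminin receptor (cow chromosome 22, 12729703 to 12741653), stood at 9.13, 43.0, 37.6, 56.4 and 262 RPM, 4.71-fold higher at 2 to 4 cells than in the oocyte (3.39 to 6.68). With libraries scaled to the median gene, or with a pseudocount of 5 RPM, its change at this step was under the threshold. The median change over all members was 0.20, against 0.27 over all genes. Beyond counting error 25 of 71 members were higher and 14 lower at 2 to 4 cells. The order of the 75 members with more than 3 reads in any library was also similar in both, with a Spearman correlation of 0.907, given as a description since gene length is the same on both sides.

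Between 2 to 4 and 8 to 16 cells 35 cow members rose and none fell, 15 small subunit genes, 17 large subunit genes, RPLP1, RPLP2 and RPS27L. Over all genes 12.6% rose and 27.2% changed, and the median gene moved by -0.44 while the median member moved by 1.88. RPL26, near the exit of the peptide tunnel and known to bind p53 messenger RNA, stood at 8.52, 4.06, 123, 78.5 and 93.6 RPM, a 30.4-fold rise at this step (19.1 to 51.6). RPL9 of the large subunit stood at 4.06, 3.83, 115, 178 and 189 RPM (30.04-fold, 18.6 to 51.9). RPS19, the gene most often mutated in Diamond-Blackfan anaemia, stood at 4.06, 1.58, 57.8, 72.1 and 84.2 RPM (36.7-fold, 17.6 to 91.9). These 3 genes made most of their climb at this step, and RPL26 was highest here.

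From 8 to 16 cells to the morula no cow member reached the threshold, where 11.8% of all genes changed. The members went on moving by smaller amounts: the median change was 0.62 against 0.07 over all genes, and of 73 members with more than 3 reads in both libraries the fold was above 1 beyond counting error in 55 and below it in 4. Between the morula and the blastocyst 6 rose and none fell: RPL15, RPL39, RPS10, RPS18, RPS29 and RPSA. Over all genes 11.9% rose and 23.4% changed, while the median member moved by 0.80 and the median gene by -0.11. Mitochondrial reads were 9.15% of the morula library and 30.2% of the blastocyst library. Reads in gene rows, mitochondrial ones included, were 71.7% and 81.6%. On reads in non-mitochondrial genes, which leaves out mitochondrial reads and those outside gene rows, 10 members rose at this step, where 16.2% of all genes rose. The median change on that scale was 1.11 among members that reached 1 RPM and 0.17 over all genes. On either scale the share of the 77 members that rose was below that of all genes.

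RPS29 and RPL39, 2 of these 6, had 0 reads in each of the first 4 cow libraries. For RPL39 this holds for the row used. Another RPL39 row, on chromosome 14, had 4 reads at 8 to 16 cells, 3 in the morula and 4 in the blastocyst. RPS29, a small zinc-binding protein of the small subunit, reached 26.1 RPM (370 reads) in the blastocyst, at least 33.9-fold over the morula, where a count of 0 allows 0.769 RPM. RPL39, a short protein of the peptide tunnel, reached 8.88 RPM (126 reads), at least 11.6-fold over the morula. The rows of both genes are short, 171 bases for RPS29 on chromosome 10 (26814899 to 26815069) and 423 bases for RPL39 on the X chromosome (97604641 to 97605063). In the pig, where the rows named RPS29 and RPL39 span 1874 and 3462 bases, the genes had reads in every library but that of 2 to 4 cells.

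Of the cow members 64 were highest in the blastocyst and 9 in the morula: RPL35, RPL35A, RPL36A, RPLP1, RPS13, RPS23, RPS24, RPS27L and RPS3A. No counts of highest or lowest stage over all genes are given here, so whether these are particular to the members was not tested. RPS13 stood at 10.3, 14.2, 115, 137 and 89.3 RPM. RPS23, which sits at the decoding centre, stood at 18.9, 9.24, 135, 149.8 and 108 RPM. Neither difference between the morula and the blastocyst reached the threshold. The lowest level was in the oocyte for 43 members, at 2 to 4 cells for 30 and in the morula for RPL15 and RPL21, and 30 members were higher at every step than at the one before. Ties were counted for the earliest stage, so the 43 include RPS29 and RPL39, with 0 reads in each of the first 4 libraries.

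In the pig 43 of the 49 members rose between the oocyte and the blastocyst and none fell, all 20 small subunit genes, 21 of 24 large subunit genes, RPLP0 and RPS27L. Over all genes compared 26.0% rose and 45.2% changed. The median change over all 49 members was 5.95, against 0.43 over all genes, with 6.53 for small and 5.49 for large subunit genes. In all 37 members with more than 3 reads in both libraries the interval of the fold lay above 1. The 6 members that did not rise all had few reads: RPL17 and RPL36 had 0 in every library, RPL10L at most 3, RPL3L and RPLP2 at most 4, and RPL28 had 13 in the blastocyst and 0 before. The rows of RPL17, RPL36 and RPLP2 span 542, 306 and 348 bases.

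RPL9 (pig chromosome 8, 30684483 to 30699189) had the largest rise in the pig. It had 0 reads in the oocyte and then 1.93, 37.6, 387 and 678 RPM, at least 763-fold higher in the blastocyst. RPL13, of the large subunit, had 0 reads in the oocyte and at 2 to 4 cells, then 3.47, 19.6 and 382 RPM, at least 429.8-fold higher in the blastocyst than in the oocyte. RPL9 thus gained most before the morula and RPL13 after it.

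The next 3 genes are the same as 3 of the 5 with the largest rises in the cow. RPL23 stood at 2.66, 1.93, 22.7, 188 and 932 RPM, 350.0-fold higher in the pig blastocyst than in the oocyte (184 to 766). RPS9 had 2 reads in the oocyte, 0 at 2 to 4 cells, and then 10.1, 39.0 and 314 RPM, a ratio of 531 that rests on those 2 reads (147 to 4391). RPS18 stood at 3.85, 3.62, 27.8, 137 and 934 RPM (243-fold, 142 to 456). The choice of the genes with the largest changes favours genes with few oocyte reads, and their intervals are wide accordingly.

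Between the oocyte and 2 to 4 cells 8 pig members fell and none rose, where 2.17% of all genes fell and 5.43% changed. RPL6 and RPL27 of the large subunit and RPS3A, RPS12 and RPS15A of the small subunit were among them. The median change over all members was -0.79, against -0.14 over all genes, with -1.30 for small and -0.46 for large subunit genes. Of 27 members with more than 3 reads in both libraries, 14 were lower beyond counting error and 1, RPL15, was higher. The number of members with 0 reads was 9 in the oocyte, 12 at 2 to 4 cells and 4 at 8 to 16 cells, in libraries of 3377626, 4138616 and 3166110 reads. The count of 8 depends on the pseudocount, with 16 past the threshold at 0.1 RPM and 1 at 5 RPM.

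RPL6 had the largest fall. It stood at 24.9, 2.17, 16.7, 165 and 489 RPM, 11.4-fold lower at 2 to 4 cells than in the oocyte (5.75 to 25.9). RPL27 stood at 12.4, 1.21, 26.2, 71.9 and 382 RPM, 10.3-fold lower at 2 to 4 cells. By 8 to 16 cells RPL27 was above its oocyte level and RPL6 was still below it. RPS15A, with more reads, went from 34.3 to 5.56 RPM (6.18-fold lower, 3.93 to 10.1). RPL15 went the other way, from 34.6 to 58.96 RPM, short of the threshold.

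Each of the following pig steps brought many members up. Between 2 to 4 and 8 to 16 cells 25 rose and none fell, 16 of the small and 9 of the large subunit, where 4.33% of all genes rose and 4.87% changed. The median change over all members was 2.15 against 0.21 over all genes, and with a pseudocount of 5 RPM 6 members rose. RPL19 of the large subunit stood at 11.55, 2.42, 63.8, 430 and 2302 RPM, a 26.4-fold rise at this step (14.1 to 55.9), and RPS23 stood at 2.96, 0, 15.2, 231 and 371 RPM, at least 20.9-fold. Measured from the oocyte, the median change at 8 to 16 cells was 0.79 in the pig and 2.07 in the cow.

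Between 8 to 16 cells and the morula 38 pig members rose and none fell, 19 of the small and 17 of the large subunit with RPLP0 and RPS27L, where 12.0% of all genes rose and 23.3% changed. The median member moved by 2.43 and the median gene by 0.18. RPS3A, of the small subunit, stood at 4.74, 0.242, 12.6, 278 and 880.2 RPM, a 22.04-fold rise at this step (16.1 to 31.1). RPS12, also of the small subunit, stood at 19.8, 3.38, 23.4, 432 and 2322 RPM (18.5-fold, 14.6 to 23.7). RPS23 rose 15.3-fold (11.4 to 20.9). In all 42 members with more than 3 reads in both libraries the interval of the fold lay above 1.

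Between the pig morula and blastocyst 28 members rose and none fell, 12 small subunit genes, 15 large subunit genes and RPLP0, where 13.8% of all genes rose and 27.6% changed. The median member moved by 2.35 and the median gene by -0.11. RPL13 rose 19.4-fold (15.0 to 25.7). RPS15, near the decoding centre, stood at 4.14, 0.483, 6.95, 36.6 and 532 RPM (14.5-fold, 11.97 to 17.8), and RPL35, at the tunnel exit, at 3.26, 0.483, 12.3, 62.6 and 789 RPM (12.6-fold, 10.9 to 14.7). On the log2(RPM + 1) scale these 3 genes changed most at the last step, and RPS3A, RPS12 and RPS23 at the one before. By plain ratio RPS3A (52.3-fold, from 1 read), RPL35 (25.5-fold, from 2 reads) and RPS23 (at least 20.9-fold) rose more between 2 to 4 and 8 to 16 cells. In RPM itself RPS3A and RPS12 gained most at the last step. Without the members whose row overlaps another row, 16 of 33 rose, against 28 of 49, and the median change among members that reached 1 RPM was 2.31 against 2.36.

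**Figure D3:**
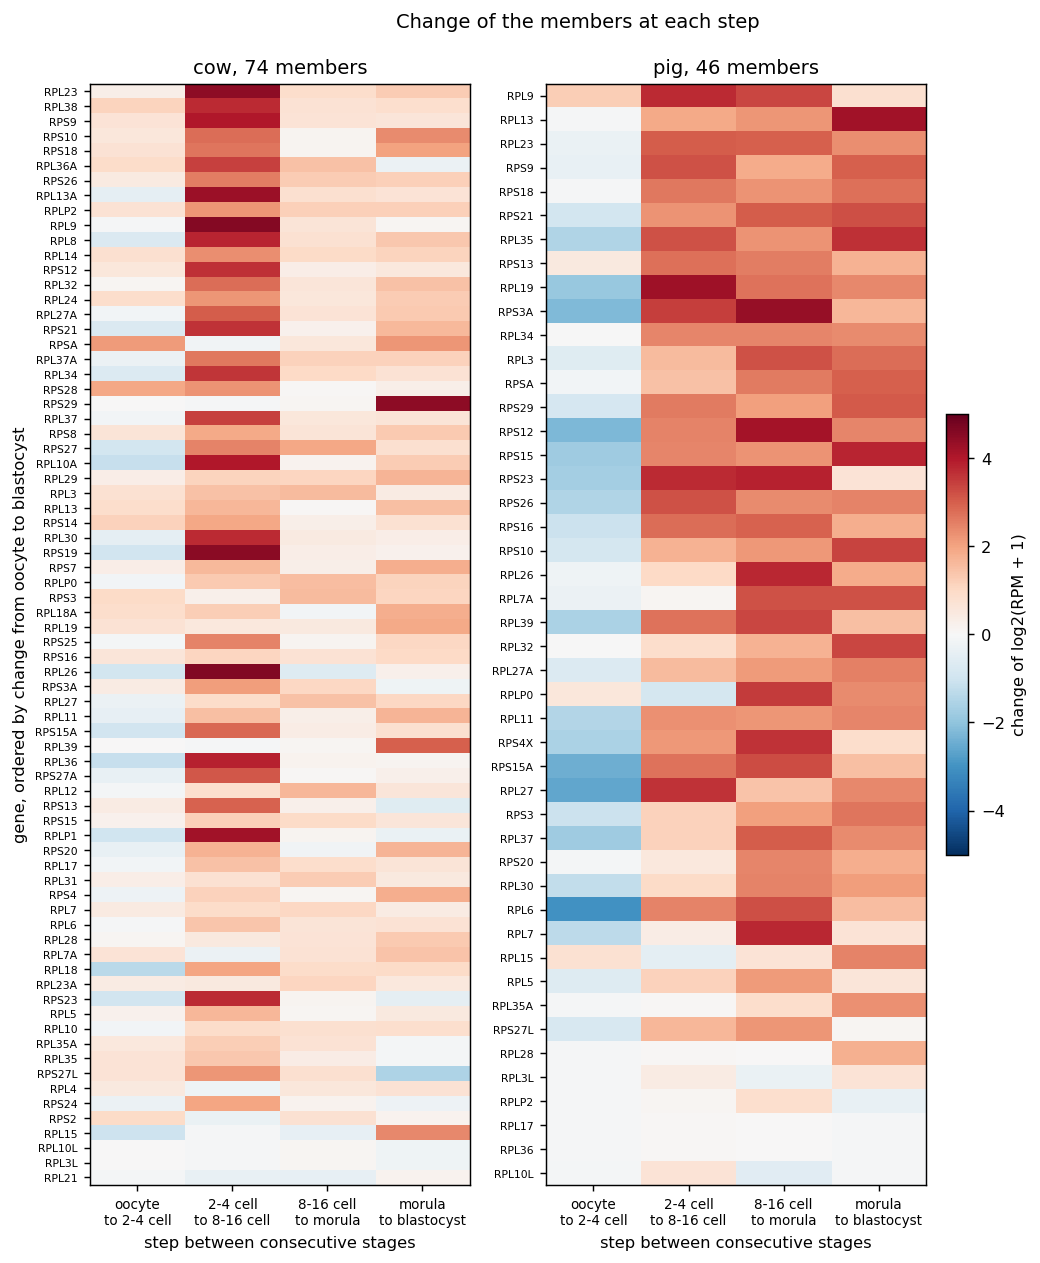
Change of log2(RPM + 1) of each member at the 4 steps between consecutive stages, cow (74 of 77 members drawn) and pig (46 of 49), ordered by the change from oocyte to blastocyst. Red is higher and blue lower in the later stage; red is strongest in the cow at the step from 2 to 4 to 8 to 16 cells, and the pig columns run from blue at the first step to red at the 3 others.

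Of the pig members 45 were highest in the blastocyst, RPLP2 with its 4 reads in the morula being the exception among the 46 members above 3 reads in any library. The lowest level was at 2 to 4 cells for 36 members, in the oocyte for 9 and at 8 to 16 cells for RPLP0. Ties at 0 reads were counted for the earliest stage. The 9 thus include RPL13, RPL28, RPL35A, RPL3L and RPLP2, with 0 reads both in the oocyte and at 2 to 4 cells. From 2 to 4 cells on, 40 of 46 pig members and 55 of 75 cow members above 3 reads in any library were higher at every step than at the one before. Over all 4 steps this held for 3 of the pig and 30 of the cow members. These counts too are given without those over all genes.

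The stalk proteins recruit the elongation factors to the large subunit. RPLP0, the base of the stalk, stood at 10.95, 9.91, 26.3, 79.5 and 175 RPM in the cow and at 8.88, 13.8, 6.95, 88.9 and 459.5 RPM in the pig, where it rose 51.7-fold from oocyte to blastocyst (36.1 to 76.9). In the cow RPLP1 stood at 12.4, 5.63, 119.7, 131 and 103 RPM and RPLP2 at 1.83, 3.60, 20.4, 47.7 and 109.9 RPM. The stalk genes differed in timing: cow RPLP1 reached its upper range by 8 to 16 cells, RPLP0 and RPLP2 were highest in the blastocyst, and pig RPLP0 was the single pig member lowest at 8 to 16 cells. RPLP2 had at most 4 reads in any pig library. RPSA stood at 3.85, 3.38, 11.055, 72.6 and 588.5 RPM in the pig, with no counterpart there to its early rise in the cow.

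Some ribosomal proteins have copies encoded by a second gene. RPS27L, a copy of RPS27 induced by p53, stood at 0.609 (3 reads), 1.58, 11.045, 20.3 and 6.28 RPM in the cow, while RPS27 stood at 7.71, 3.60, 25.035, 97.5 and 169 RPM. Between the morula and the blastocyst cow RPS27L was 3.23-fold lower (2.35 to 4.42), short of the threshold, and RPS27 was higher. In the pig RPS27L stood at 7.40, 3.87, 14.5, 70.3 and 74.8 RPM, and its ratio of blastocyst to morula was 1.065, with an interval that spans 1 (0.887 to 1.28), while 42 of 43 members with more than 3 reads in both were higher. RPL3L, the copy of RPL3 found in heart and skeletal muscle, and RPL10L, the testis copy of RPL10, had 0 reads in all cow libraries, where RPL3 went from 10.5 to 211 RPM and RPL10 from 85.4 to 462 RPM. In the pig RPL3L had at most 4 reads, and its row overlaps that of NDUFB10, while RPL3 went from 4.14 to 644 RPM.

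Over the 48 shared members the change from oocyte to blastocyst was mostly larger in the pig. Of these members 45 rose in the cow and 42 in the pig, 41 of them in both, 4 in the cow alone (RPL17, RPL28, RPL36 and RPLP2) and 1 in the pig alone (RPL15). With nearly all members past the threshold in each species, nothing is read from that overlap. The pig rows of RPL17, RPL36 and RPLP2 span 542, 306 and 348 bases, against 4562, 1252 and 2138 in the cow. They had at most 4 reads in any pig library, so no difference between the species is read from these 3 genes. The change was larger in the pig for 44 members, RPL3L and RPL10L with their few reads among them, and larger in the cow for the 4 that rose in the cow alone. Its median was 3.34 in the cow and 5.96 in the pig, and over the 44 members with more than 3 reads in any library of each species the changes had a Spearman correlation of 0.487, a description over genes that share libraries and depth.

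Step by step the counts of the shared members stood as follows, with the shares of all genes as given above. Between 2 to 4 and 8 to 16 cells 21 rose in the cow and 24 in the pig, 12 of them in both, and nothing is read from that overlap. From 8 to 16 cells to the morula 0 rose in the cow and 37 in the pig, with medians of 0.62 and 2.39. From the morula to the blastocyst 6 rose in the cow and 28 in the pig, with medians of 0.86 and 2.35. No test of these differences between the species was possible with 1 library per stage.

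**Figure D4:**
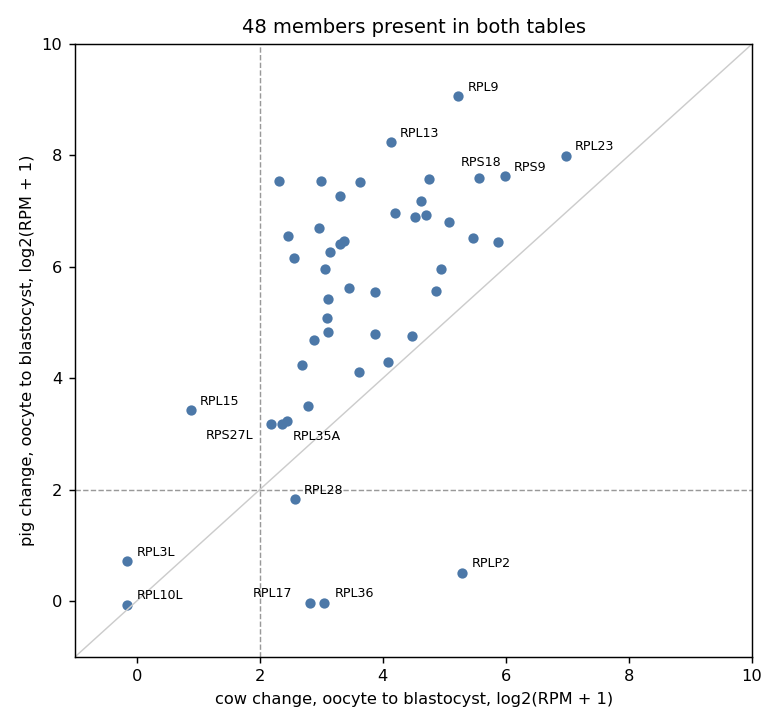
Change of log2(RPM + 1) from oocyte to blastocyst of the 48 members present in both tables, cow on the horizontal and pig on the vertical axis. Each point is 1 gene, the dashed lines mark the threshold of 2 and the grey diagonal equal change. Above the diagonal lie 44 points, and below it RPL17, RPL28, RPL36 and RPLP2. Pig RPL17, RPL36 and RPLP2 had at most 4 reads in any library.

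Other genes of the translation machinery were read from lists, beside 21.8% of all genes that rose from oocyte to blastocyst in the cow and 26.0% in the pig. Of the ribosomal proteins under other names 3 of 6 rose in the cow and none fell. RPL22L1, a copy of a large subunit gene, went from 2.23 RPM in the oocyte to 51.7 RPM in the blastocyst and RACK1 of the small subunit from 22.7 to 343 RPM, while FAU stood at 19.1 and 17.3 RPM. In the pig 3 of 5 rose, RACK1 from 4.44 to 814 RPM, RPL36AL from 3.55 to 176 RPM and RPL7L1 from 13.0 to 61.9 RPM. Among elongation and initiation factors and other genes known for the pyrimidine-rich start 8 of 16 rose in the cow (median change 2.19) and 8 of 12 in the pig (median change 3.84), and none fell. EEF1G, a subunit of the elongation factor exchange complex, went from 16.6 to 248 RPM in the cow and from 1.18 to 384 RPM in the pig.

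Genes for building ribosomes, the nucleolar and assembly factors, moved in both directions. From oocyte to blastocyst 5 of 40 rose and 6 fell in the cow (median change -0.23), where 21.8% of all genes rose and 18.4% fell. In the pig 5 rose and 2 fell of 31 (median change 0.20), where 26.0% of all genes rose and 19.2% fell. Each of these shares is below that of all genes. Among the cow genes EIF6, which keeps the subunits apart until the large one is mature, went from 1.42 to 42.9 RPM and POLR1C, a polymerase subunit, from 3.25 to 38.1 RPM, whereas SBDS, which helps to release EIF6, went from 886 to 42.9 RPM and LTV1, a small subunit assembly factor, from 418 to 38.1 RPM. In the pig MRTO4 went from 0 reads to 38.6 RPM and POLR1C from 1.18 to 52.0 RPM, and RPF2 from 508 to 67.8 RPM and HEATR1 from 150.4 to 28.4 RPM. At the last pig step 7 of the 31 fell and none rose (median change -1.29), where 13.8% of all genes fell and the median gene moved by -0.11. Of the regulators of growth and of these messages 4 of 8 rose in the cow and 4 of 9 in the pig, none falling; pig MYCN, a growth-promoting transcription factor, stood at 0, 2.17, 22.1, 104 and 39.7 RPM.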

How the data were processed

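RNA was sequenced from 10 libraries, 1 per stage and species, and samples were grouped by their titles. The deposited tables, 1 per species, hold log2 values, made by the authors from reads per 1000000 reads (RPM), with 0 reads entered as 0.9 of a read, as found from the values: at a tolerance of 0.01 of a read, 100% of the values were whole reads. Trim Galore 0.6.4, a read trimmer, HISAT2 2.1.0, an aligner, and the builds UMD3.1 and Sscrofa11.1 are named, per the submitters' processing notes. The counting tool, annotation, strand setting and treatment of duplicates are not given in the sources used here. Coordinates are those of the deposited tables.

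RPM and whole reads were computed from the log2 values in Python 3.11.15 with numpy 2.4.6, pandas 2.3.3 and scipy 1.17.1. Changes are differences of log2(RPM + 1) between the deposited values, with a minimum of 1 RPM in either library and a threshold of 2. Shares of reads have Wilson and folds exact conditional 95% intervals. No p-values were computed, since a group holds 1 library. Scripts were tested on simulated data. Named members are, per species, the 5 largest and 5 smallest changes from oocyte to blastocyst, up to 3 largest changes past the threshold at each step, the stalk genes and RPSA, paralogue pairs, and members at or below 3 reads throughout. Some results on single genes are not reported here, though these genes stay in every count. Other members named in passing were chosen after their values were seen. The members and the gene lists were chosen with earlier results of these data known. Tried as alternatives were other thresholds, pseudocounts and minimums, scaling to reads in non-mitochondrial gene rows or to the median gene, equal depth, and other treatments of short, repeated or overlapping rows.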

Additional observations from a re-analysis of the deposited data

Results flagged for a closer look

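Some members moved in opposite directions in cow and pig at the same step, each beyond counting error. None of these differences was tested, since each stage is 1 library, and changes are differences of log2(RPM + 1). Between the oocyte and 2 to 4 cells the median change of the 48 shared members was 0.21 in the cow and -0.73 in the pig, a difference (pig minus cow) of -0.94. At that step RPL19 went from 86.2 to 143 RPM in the cow and from 11.55 to 2.42 RPM in the pig, a difference of -2.60. RPS12 went from 10.8 to 16.2 RPM in the cow and from 19.8 to 3.38 RPM in the pig (-2.80). RPS3 differed by -2.03 and RPL7 by -1.76. RPL15 was the reverse case, from 206 to 101 RPM in the cow and from 34.6 to 58.96 RPM in the pig, a difference of 1.78.

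At later steps fewer members parted. RPLP0 went from 9.91 to 26.3 RPM in the cow and from 13.8 to 6.95 RPM in the pig between 2 to 4 and 8 to 16 cells, a difference of -2.22. Between 8 to 16 cells and the morula RPL26 went from 123 to 78.5 RPM in the cow and from 7.26 to 112.9 RPM in the pig, a difference of 4.43, RPS20 differed by 2.65 and RPL15 by 1.09. Between the morula and the blastocyst RPS13 went from 137 to 89.3 RPM in the cow and from 86.3 to 294 RPM in the pig, a difference of 2.36, RPS3A differed by 1.89 and RPS23 by 1.14.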

How the results depend on the processing

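The counts of members that changed from oocyte to blastocyst, 70 in the cow and 43 in the pig, kept within 1.5 times under all 11 alternatives. The counts of single steps moved more. At a threshold of 1 the cow counts were 9, 58, 16 and 34 for the 4 steps in order (1, 35, 0 and 6 at a threshold of 2), and the pig count of the first step was 22 (8). With a pseudocount of 0.1 RPM the first step gave 3 in the cow and 16 in the pig, and with 5 RPM 0 and 1, while the second pig step gave 6 (25). The counts at other thresholds and pseudocounts are given without the share of all genes under the same setting. They show only how the member counts moved. Scaling to the median gene, which shifted the libraries by between -0.23 and 0.31 on the log2 scale, left 0 in the first cow step and turned its median change among members that reached 1 RPM from 0.29 to -0.01. Scaling to reads in non-mitochondrial gene rows, which also leaves out reads outside the gene rows, gave 10 at the last cow step (6). Leaving out members overlapped by another row, an alternative chosen after seeing the data, gave 16 of 33 at the last pig step (28 of 49). The causes were not tested. Members with few reads limit the first 2 pig steps, where 27 and 29 of 49 members had more than 3 reads in both libraries. No paired analysis was possible because each group is 1 library and the result comes from no test.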

Other observations

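Several symbols stood on more than 1 row, 8 in the cow and 5 in the pig, and the highest was used above. The cow row of RPL17 on chromosome 21 stood at 6.90, 6.53, 9.20, 14.9 and 0.212 RPM from oocyte to blastocyst, while the row on chromosome 24 used above stood at 26.6, 24.1, 67.7, 124 and 194 RPM. The cow row of RPL36A on chromosome 10 stood at 5.48, 3.15, 40.3, 37.2 and 121 RPM and that on chromosome 15 at 0, 0.676, 7.18, 15.6 and 1.76 RPM, beside 7.10, 14.2, 160.3, 439 and 361 RPM for the row on the X chromosome. The cow row of RPS25 on chromosome 3 stood at 2.03, 2.03, 5.89, 9.23 and 2.40 RPM, and the row used, on chromosome 15, at 18.1, 16.7, 97.0, 106 and 222 RPM. The unused rows of RPL17 and RPS25 and the chromosome 15 row of RPL36A were thus lower in the blastocyst than in the morula, while the rows used of RPL17 and RPS25 were highest in the blastocyst. The chromosome 10 row of RPL36A went the other way. So did the unused cow row of RPL12, also on chromosome 10, at 0.811, 1.13, 2.95, 7.18 and 23.2 RPM. How reads that match several copies were assigned is not given in the sources used here.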
